A study of Mus musculus with 9 samples.

Results

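The genes described here are the cellular phosphate transporters *Slc20a1*, *Slc20a2* and *Xpr1*, chosen by name because their proteins move inorganic phosphate across the plasma membrane. They are 3 of the 55416 genes in the count table, and all 3 were among the 13679 genes that passed the filter on low counts. MC3T3-E1 is a pre-osteoblastic line from mouse calvarial bone, and a single subclone of it was sequenced to compare the responses to organic and inorganic phosphate. The cells of all conditions were differentiated in osteogenic medium (10 mM β-glycerophosphate, or BGP, with dexamethasone and ascorbic acid). At day 27 they received 4 mM BGP as organic phosphate or 4 mM of a mixture of Na2HPO4 and NaH2PO4 (NaHPO4) as inorganic phosphate. Control cells received no added phosphate at this step. Treatment lasted 16 h until harvest at day 28. Each condition had 3 libraries, 9 in all. The sample labels give osteogenic medium with BGP for the whole 27 days, whereas the study's methods describe a final period without BGP, so the phosphate to which the Control cells had been exposed just before treatment is not settled by these sources. Control cells also had the phosphate of the culture medium itself.

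SLC20A1 (PiT1) and SLC20A2 (PiT2) are type III sodium-phosphate cotransporters, which bring phosphate into most cell types along the sodium gradient, and both also serve as receptors for retroviruses. XPR1 is the known phosphate exporter of animal cells, and inositol pyrophosphates bound by its SPX domain control its activity. In mineralizing cells PiT1 and PiT2 are known for supplying phosphate and for sensing it outside the cell, and loss of function of *SLC20A2* or *XPR1* in humans causes primary familial brain calcification.

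In GRCm39 *Slc20a1* (ENSMUSG00000027397) lies at chr2:129040256-129053536 on the plus strand, with 11 exons in its canonical transcript. *Slc20a2* (ENSMUSG00000037656) lies at chr8:22966111-23059686 on the plus strand, also with 11 exons. *Xpr1* (ENSMUSG00000026469) lies at chr1:155151407-155293181 on the minus strand, with 15 exons. The promoters of *Slc20a1*, which changed with treatment, and of *Xpr1*, which did not pass the test, are shown for comparison, as the 250 bases before the RefSeq start in GRCm38.p6. For *Slc20a1* these are chr2:129198523-129198772 (plus strand) and for *Xpr1* chr1:155417445-155417694 (minus strand), each printed 5′ to 3′. Capitals mark matches to CACGTG (an E-box), GGGCGG or its reverse complement CCGCCC (a GC box), and the first base of a match to TATAAA.
Slc20a1: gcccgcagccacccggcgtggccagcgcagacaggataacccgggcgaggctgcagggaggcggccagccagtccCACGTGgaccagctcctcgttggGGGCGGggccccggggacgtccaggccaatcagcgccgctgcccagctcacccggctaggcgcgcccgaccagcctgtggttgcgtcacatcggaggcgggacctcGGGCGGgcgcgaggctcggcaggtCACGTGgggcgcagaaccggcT
Xpr1: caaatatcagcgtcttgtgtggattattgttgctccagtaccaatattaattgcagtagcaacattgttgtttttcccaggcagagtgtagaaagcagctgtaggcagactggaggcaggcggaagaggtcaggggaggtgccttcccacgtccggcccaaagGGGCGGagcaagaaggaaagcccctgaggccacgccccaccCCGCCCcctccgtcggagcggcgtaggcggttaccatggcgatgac

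The *Slc20a1* promoter had a GC content of 75.2% and that of *Xpr1* 57.6%. Motifs were searched on both strands of 300 bases, which add 50 bases after the start to those printed. In *Slc20a1*, CACGTG began 175 and 22 bases before the start, and GGGCGG began 152 and 46 bases before it, with no overlap between them. CACGTG was present in 7.15% of 32851 RefSeq promoter windows of this length, and 0.594% held at least 2 matches. A TATAAA in *Slc20a1* began at the last base before the start, and 13.6% of the windows held one. *Xpr1* held 5 GC boxes, a motif found in 35.7% of windows, and neither CACGTG nor TATAAA. The 3 of these after the start share single bases with their neighbours. TGANTCA (an AP-1 site), TGACGTCA (a cyclic AMP response element) and GCGNGGGCG (an EGR site) were absent from both windows and occurred in 7.81%, 1.79% and 5.55% of all windows. RefSeq gives a second *Slc20a1* promoter with a GC content of 50.8% and a single GC box. These matches describe letters only and were not tested as binding sites.

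Libraries held between 21390839 and 28234404 counts, so that 1 CPM, the unit of expression scaled to library size, was 21.4 to 28.2 reads. Replicates differed by more than counting noise (chi-square 2.64 to 4.88 times its degrees of freedom). Nothing in the sources states that the libraries came from separate cultures, so p-values measure only the spread between these samples. Of 14 osteoblast and osteocyte markers, 13 had at least 10 counts in every library. Of 5 muscle markers, *Myod1* and *Myog* were at 0 throughout, and 1, *Des*, had at least 10 counts in every library, with means of 9.30 CPM in Control, 8.15 CPM for BGP and 7.50 CPM for NaHPO4. The summed level of the 5 chondrocyte markers was 248 to 306 CPM in Control, 339 to 446 CPM for BGP and 185 to 264 CPM for NaHPO4. Most of this sum was *Col2a1*, with means of 242.0, 342.5 and 177.0 CPM in that order, highest with BGP like *Slc20a1*. *Sox9*, the other chondrocyte marker with at least 10 counts in every library, was at 40.8, 41.5 and 38.7 CPM, and *Matn1* was at 0. The osteoblast and osteocyte markers summed to 110200 to 117300 CPM in Control, 107700 to 113800 CPM after BGP and 97510 to 104400 CPM after NaHPO4. Single members of this list moved in different directions. In that order, mean *Dmp1* was 76.0, 551.7 and 348.6 CPM and *Fgf23* 1.20, 8.39 and 1.54 CPM. *Sost* was at 1.39, 1.21 and 0.427 CPM and *Alpl* at 76.9, 73.2 and 66.5 CPM. Macrophage and osteoclast markers, 3 of 6 of them with at least 10 counts throughout and none at 0, summed to 290 to 297, 276 to 287 and 250 to 263 CPM in the same order. Nearly all of this sum was *Ctsk*, with means of 292.1, 281.0 and 255.0 CPM, so the other markers of this list added little. The part of these marker genes in the results below was not tested. In whole-culture RNA, fewer cells expressing a gene and less RNA per cell cannot be told apart.

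*Slc20a1* was the phosphate transporter that changed, and it rose with both phosphates, more with BGP. Its counts were 856, 901 and 954 in the Control libraries, 1823, 1932 and 1902 with BGP, and 1797, 1793 and 1534 with NaHPO4. After TMM normalization the Control libraries had 40.0, 39.2 and 37.6 CPM, the BGP libraries 82.2, 86.8 and 81.8 CPM, and the NaHPO4 libraries 65.4, 62.9 and 59.9 CPM. Every library with added phosphate was above every Control library, and every BGP library was above every NaHPO4 library. Of all tested genes, 18.5% did not overlap between BGP and Control (9.74% upward), 23.2% between NaHPO4 and Control (11.6% upward) and 21.2% between BGP and NaHPO4 (10.8% higher with BGP).

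**Figure D1:**
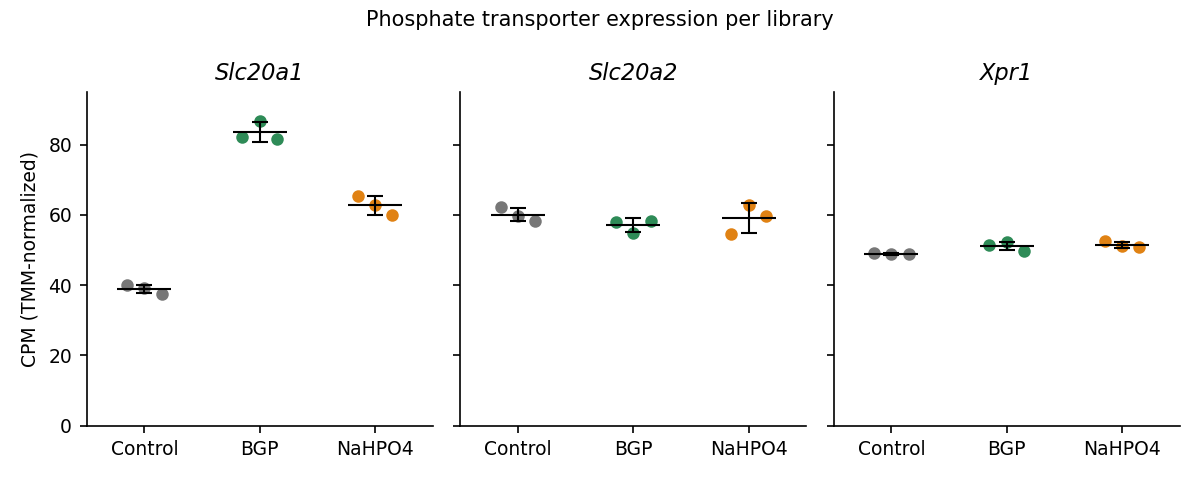
Expression (CPM, TMM-normalized, linear axis from 0) of *Slc20a1*, *Slc20a2* and *Xpr1* in each of the 9 libraries, with Control in gray, BGP in green and NaHPO4 in orange. Points are libraries, and horizontal lines and error bars are the mean and SD of 3 libraries. *Slc20a1* is split into 3 levels around 38.9, 83.6 and 62.8 CPM, while *Slc20a2* and *Xpr1* lie close to one level.

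Mean *Slc20a1* (± SD, n = 3) was 38.9 ± 1.25 CPM in Control, 83.6 ± 2.78 CPM for BGP and 62.8 ± 2.76 CPM for NaHPO4. With BGP it was 2.15-fold that in Control (95% confidence interval 2.01 to 2.30; log2 fold change 1.10, SE 0.05), with an adjusted p of 3.25e-19 by edgeR's quasi-likelihood test. With NaHPO4 it was 1.61-fold that in Control (1.51 to 1.73; log2 fold change 0.69, SE 0.05; edgeR's quasi-likelihood test, adjusted p = 5.75e-13). Both exceed the log2 fold change of 0.5 that, with an adjusted p below 0.05, defined differentially expressed genes (DEGs).

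*Slc20a1* was thus a DEG in both comparisons with Control, which share their Control libraries. Of all tested genes, 0.556% were DEGs with BGP, 0.482% in the upward direction, and 0.716% with NaHPO4, 0.446% in the upward direction. By p, *Slc20a1* ranked 5 among all 13679 tested genes with BGP and 9 with NaHPO4. From the highest log2 fold change downward it ranked 60 and 173.

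The treatments also differed from each other. *Slc20a1* with BGP was at 1.33-fold its level with NaHPO4 (1.25 to 1.42; log2 fold change 0.41, SE 0.04; edgeR's quasi-likelihood test, adjusted p = 3.58e-08). An adjusted p below 0.05 was reached by 5.38% of tested genes in this comparison, 3.33% with the higher level in BGP, and *Slc20a1* ranked 28 by p. The log2 fold change lay below 0.5, so it was not a DEG between the treatments, where 0.585% of genes were (0.380% higher with BGP).

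*Slc20a2*, the other importer, did not pass the test in any comparison. Its levels were 62.2, 59.8 and 58.4 CPM in the Control libraries, 58.1, 54.8 and 58.4 CPM in those with BGP, and 54.7, 62.9 and 59.7 CPM in those with NaHPO4, from 1220 to 1793 counts. The conditions overlapped in all 3 comparisons, and the NaHPO4 libraries held both the lowest and the highest value.

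Means (± SD, n = 3) were 60.1 ± 1.92 CPM in Control, 57.1 ± 2.00 CPM for BGP and 59.1 ± 4.17 CPM for NaHPO4. The log2 fold change was -0.07 with BGP (95% confidence interval -0.18 to 0.03; edgeR's quasi-likelihood test, adjusted p = 0.580) and -0.02 with NaHPO4 (-0.12 to 0.08; adjusted p = 0.857). Between BGP and NaHPO4 it was -0.05 (-0.15 to 0.05; edgeR's quasi-likelihood test, adjusted p = 0.693). These intervals leave room for small differences in either direction, but none reaches the log2 fold changes measured for *Slc20a1*.

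*Xpr1*, the exporter, had the tightest replicates of the 3 genes in each condition. Its levels were 49.2, 48.9 and 48.8 CPM in the Control libraries, 51.5, 52.2 and 49.8 CPM in those with BGP, and 52.6, 51.0 and 51.0 CPM in those with NaHPO4, from 1052 to 1454 counts. All libraries with added phosphate lay slightly above all Control libraries, and the treatments overlapped with each other. With 9.74% and 11.6% of all tested genes above Control in this way, the absence of overlap is common in these data.

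Means of *Xpr1* (± SD, n = 3) were 48.9 ± 0.213 CPM in Control, 51.2 ± 1.26 CPM for BGP and 51.5 ± 0.901 CPM for NaHPO4. The log2 fold change was 0.06 with BGP (95% confidence interval -0.03 to 0.16; edgeR's quasi-likelihood test, adjusted p = 0.607) and 0.07 with NaHPO4 (-0.02 to 0.17; adjusted p = 0.401). BGP and NaHPO4 differed by -0.01 (-0.10 to 0.08; edgeR's quasi-likelihood test, adjusted p = 0.952). The difference from Control was therefore not beyond the error of the fit.

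**Figure D2:**
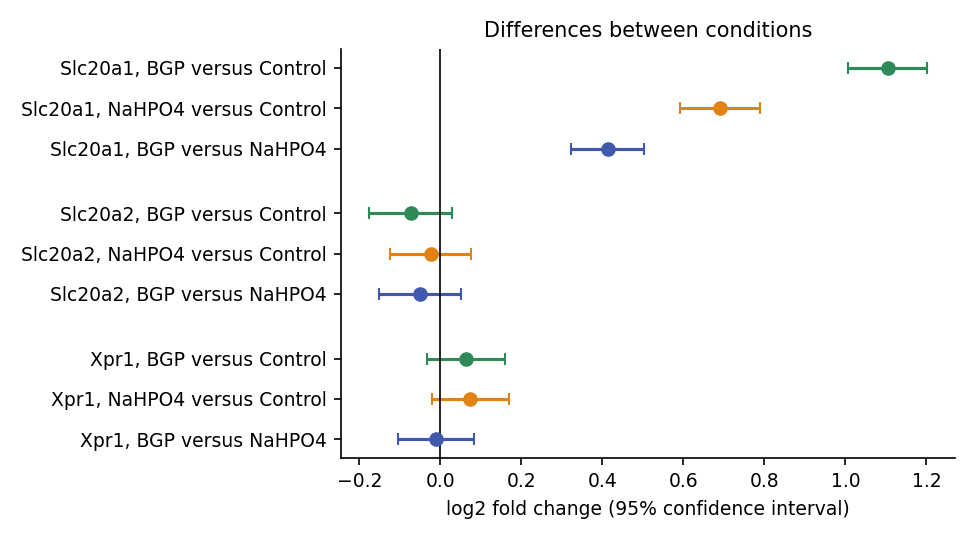
Log2 fold change (x axis) of each transporter in each comparison, from edgeR's quasi-likelihood fit of all 9 libraries, with bars for 95% confidence intervals and colours for the comparison. The 3 intervals of *Slc20a1* lie above 0, at 1.10, 0.69 and 0.41, and the 6 intervals of *Slc20a2* and *Xpr1* include 0.

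At an adjusted p below 0.05, 1 of the 3 transporters passed with BGP and with NaHPO4, against 2.53% and 7.38% of tested genes (1.86% and 3.43% upward). The median log2 fold change over all tested genes was -0.00432 with BGP, 9.75e-05 with NaHPO4 and -0.00185 between the treatments. TMM scaling places these medians near 0 by construction, and with total counts as scaling they were -0.007, 0.0246 and -0.029.

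The balance between the importers changed within libraries, where the scaling of libraries cancels. The count ratio of *Slc20a1* to *Slc20a2* was 0.644, 0.656 and 0.643 in Control, 1.42, 1.58 and 1.40 with BGP, and 1.20, 1.00 and 1.00 with NaHPO4. Control, NaHPO4 and BGP libraries formed 3 ranges that did not overlap, and the ratios were not tested separately. *Slc20a1* accounted for 39.3 ± 0.257% of the reads of both importers in Control, 59.4 ± 1.64% with BGP and 51.5 ± 2.55% with NaHPO4 (SD, n = 3). Their summed level was 99.0 ± 3.14, 140.7 ± 0.781 and 121.9 ± 3.50 CPM in Control, BGP and NaHPO4.

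**Figure D3:**
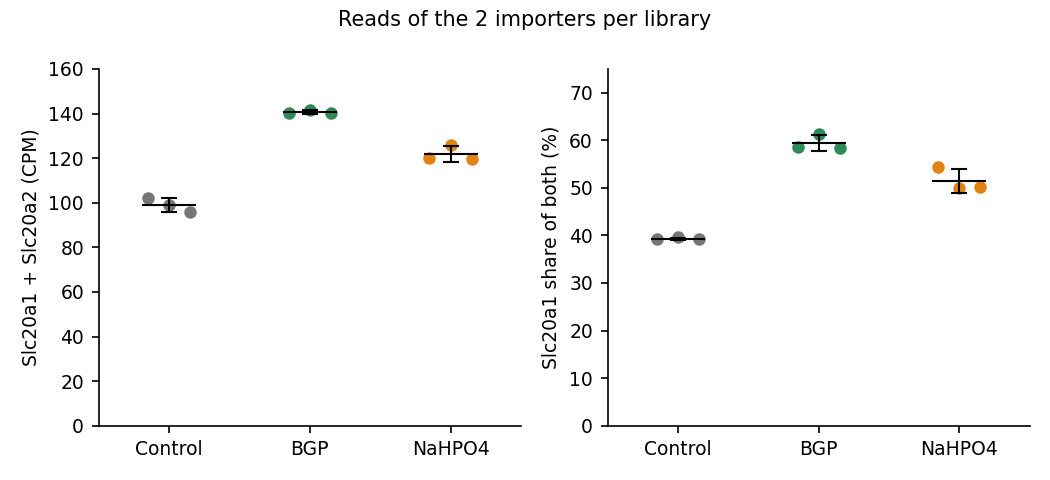
Summed level of *Slc20a1* and *Slc20a2* (left, CPM) and the share of their reads that came from *Slc20a1* (right, percent) in each library, with the mean and SD of 3 libraries. The *Slc20a1* share was lowest in Control at 39.3%, 51.5% with NaHPO4 and 59.4% with BGP.

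Relative to the exporter, the importer *Slc20a1* went from a count ratio to *Xpr1* of 0.795 ± 0.0227 in Control to 1.63 ± 0.0326 with BGP and 1.22 ± 0.0370 with NaHPO4 (SD, n = 3). The ratio of *Slc20a2* to *Xpr1* was 1.23 ± 0.0339, 1.12 ± 0.0631 and 1.15 ± 0.0985 in the same order. Its Control and BGP libraries did not overlap, while the NaHPO4 libraries overlapped with both. This ratio was not tested, and neither of its genes passed the test with BGP. Among single genes, 18.5% did not overlap between BGP and Control, and no such share was computed for ratios.

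The count ratios and read shares above are not corrected for gene length, so they describe changes between conditions, not which gene was more abundant. For that, levels of different genes were compared per kilobase of exon. Per kilobase of the union of exons, *Slc20a1* stood at 6.29 ± 0.203 CPM in Control, *Slc20a2* at 5.33 ± 0.170 and *Xpr1* at 2.73 ± 0.0119 (SD, n = 3). With BGP these levels were 13.5 ± 0.449, 5.07 ± 0.177 and 2.85 ± 0.0704, and with NaHPO4 10.1 ± 0.446, 5.24 ± 0.370 and 2.87 ± 0.0502. *Xpr1* was lowest in every condition, and *Slc20a1* was highest in both treatments. In Control the order of the importers depends on the length used, since per kilobase of the canonical transcript *Slc20a2* was higher than *Slc20a1*, at 16.3 ± 0.519 against 11.7 ± 0.378 CPM.

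Exons of *Slc20a1* overlap the opposite-strand genes *9830144P21Rik*, *Gm56350* and *Gm74587*, and 16.1% of its 50-base windows occur in them. *Gm56350* had between 107 and 157 counts per library and did not pass the test in any comparison, with a log2 fold change of -0.00 with BGP (edgeR's quasi-likelihood test, adjusted p = 0.993). *Slc20a2* overlaps *Smim19* on the opposite strand, with 5.66% of its windows shared. *Xpr1* shared 0.372% of its windows. The libraries were stranded, but the use of strand in counting is not given in the sources used here.

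The 7 type II and type I sodium-phosphate cotransporter genes examined, 3 of the *Slc34* and 4 of the *Slc17* genes, were at or near 0. *Slc34a3*, *Slc17a1*, *Slc17a2*, *Slc17a3* and *Slc17a4* had 0 counts in all 9 libraries, which at 3 counts of a library's total allows up to 0.106 to 0.140 CPM per library. *Slc34a1* reached 3 counts in a single Control library and *Slc34a2* 1 count in a single BGP library. None was tested. Of these 7 and the 3 transporters, only *Slc20a1*, *Slc20a2* and *Xpr1* were thus in the tested set.

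Of 42 other phosphate genes in 5 lists, the cotransporters included, 26 were tested, and 3 (11.5%) rose and 0 fell with BGP, while 1 rose and 2 fell with NaHPO4 (11.5%). Between the treatments 3 were higher with BGP and 0 lower (11.5%). Of all tested genes, 2.53%, 7.38% and 5.38% passed, with 3.95% lower with NaHPO4. The genes came from lists on phosphate carriers, inositol pyrophosphate enzymes, brain calcification and the sodium pump.

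Among the 12 tested genes of the list that joins the enzymes of inositol pyrophosphates, which bind XPR1, with *Kidins220*, 2 rose with BGP and 1 with NaHPO4, with a median log2 fold change over the list of 0.05 in both. *Nudt4*, which encodes a diphosphoinositol polyphosphate phosphohydrolase, was 183 ± 1.75 CPM in Control, 233 ± 3.51 with BGP and 214 ± 4.71 with NaHPO4 (SD, n = 3). It rose with BGP (log2 fold change 0.35; edgeR's quasi-likelihood test, adjusted p = 1.95e-09) and with NaHPO4 (0.22; adjusted p = 1.53e-05). *Itpk1*, an inositol phosphate kinase, rose with BGP from 9.46 ± 1.14 to 14.0 ± 0.0648 CPM (log2 fold change 0.56; edgeR's quasi-likelihood test, adjusted p = 0.000326) and was 10.9 ± 0.554 CPM with NaHPO4 (0.19; adjusted p = 0.276). The kinases *Ip6k1* and *Ppip5k2* and the membrane protein *Kidins220*, a partner of XPR1, did not pass, with log2 fold changes of -0.02, 0.03 and -0.03 with BGP and -0.00, 0.09 and 0.04 with NaHPO4.

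*Nudt4* and *Itpk1* were also higher with BGP than with NaHPO4, by log2 fold changes of 0.13 and 0.37 (edgeR's quasi-likelihood test, adjusted p = 0.0153 and 0.0132). *Nudt4* missed the threshold without BGP replicate 1 (adjusted p = 0.0964), without NaHPO4 replicate 2 (0.126) or with total counts as scaling (0.0759), and *Itpk1* without NaHPO4 replicate 2 (0.0812), all by edgeR.

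Of the 8 tested genes on the list of phosphate carriers of mitochondria and the endoplasmic reticulum, 1 passed. The location and transport activity of their proteins were not examined. *Slc37a3* fell by 0.13 on the log2 scale with NaHPO4 (edgeR's quasi-likelihood test, adjusted p = 0.0120), from 370.6 ± 4.79 to 339.1 ± 5.40 CPM. Without Control replicate 1 its adjusted p was 0.0549, and without NaHPO4 replicate 3 it was 0.0605. *Slc25a3*, the mitochondrial phosphate carrier, was at 344.9 ± 9.64, 344.2 ± 13.0 and 359.3 ± 8.14 CPM in Control, BGP and NaHPO4. The list medians were -0.02 and -0.07.

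The sodium pump maintains the gradient that PiT1 and PiT2 use. Of 2 pump subunits examined, *Atp1b2*, a beta subunit, fell by 0.52 on the log2 scale with NaHPO4 (edgeR's quasi-likelihood test, adjusted p = 0.000352), from 12.2 ± 0.543 to 8.53 ± 0.298 CPM, and was 10.7 ± 0.809 CPM with BGP. *Atp1b2* was also higher with BGP than with NaHPO4 (log2 fold change 0.33; edgeR's quasi-likelihood test, adjusted p = 0.0403), a call lost in 8 of 17 alternatives. Of the libraries, it missed the threshold without BGP replicates 2 or 3 or NaHPO4 replicates 2 or 3 (adjusted p up to 0.222). Of 4 tested brain calcification genes, *Pdgfrb*, the receptor for platelet-derived growth factor B, rose with BGP (log2 fold change 0.13; edgeR's quasi-likelihood test, adjusted p = 0.0294). Without Control replicates 1 or 3 or any BGP replicate its adjusted p lay between 0.0557 and 0.149. The other pump subunit examined, *Atp1b3*, did not pass in any comparison, at 126.2 ± 4.6 CPM in Control, 126.4 ± 4.0 with BGP and 128.3 ± 3.3 with NaHPO4. Its log2 fold changes against Control were 0.003 with BGP and 0.02 with NaHPO4. The sodium pump medians, -0.09 with BGP and -0.25 with NaHPO4, were midpoints of *Atp1b2* and *Atp1b3* alone. Over the brain calcification list the medians were 0.04 and -0.00.

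**Figure D4:**
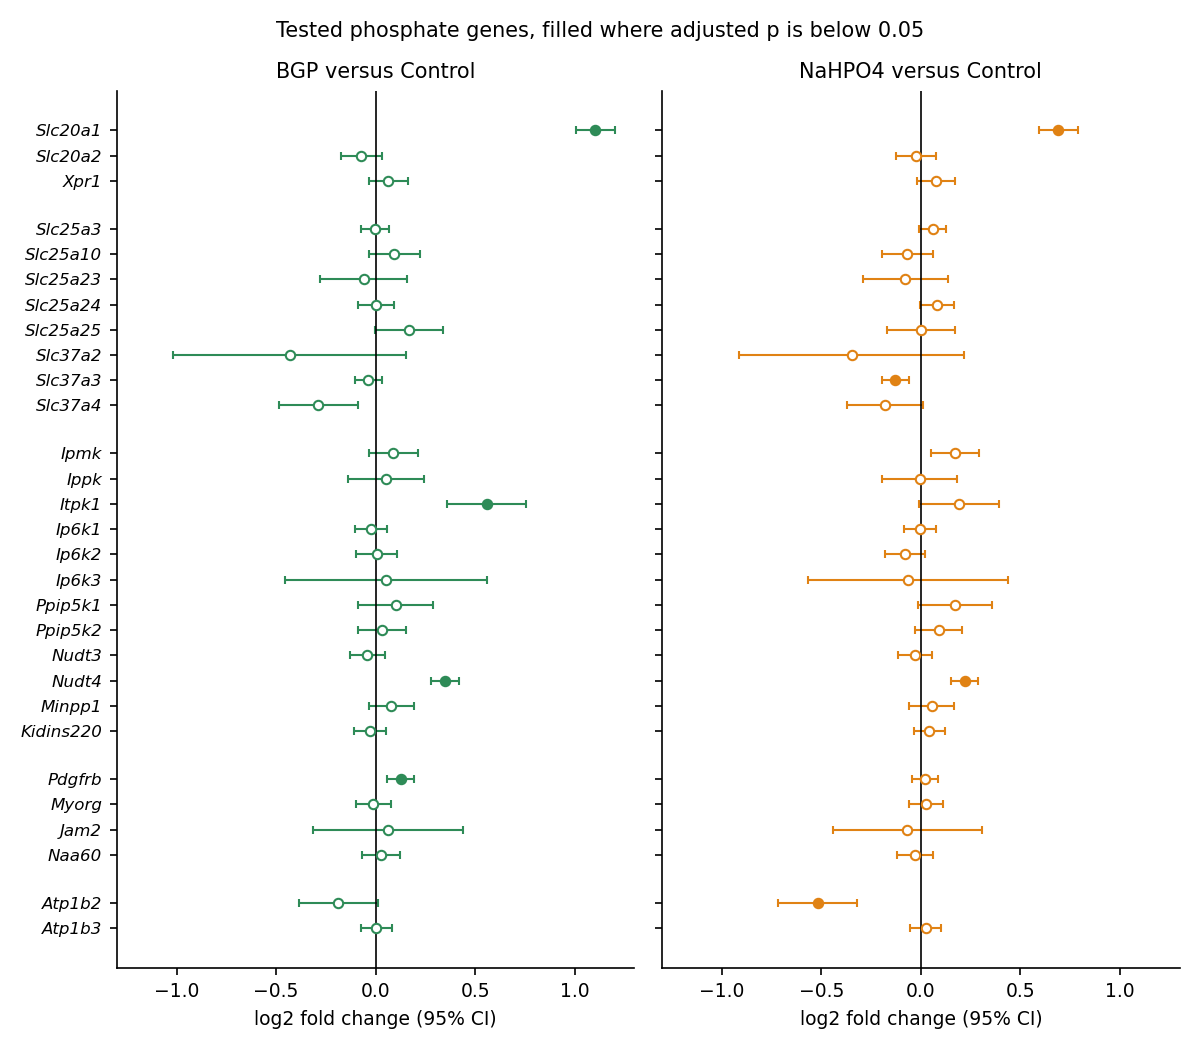
Log2 fold change (x axes, with 95% confidence intervals) with BGP (left, green) and NaHPO4 (right, orange) of the 3 transporters and of the 26 tested genes of the other phosphate lists, from top to bottom carriers, inositol pyrophosphate genes, brain calcification genes and sodium pump subunits. Filled points passed an adjusted p of 0.05. *Slc20a1* at 1.10 and 0.69 lies farthest above 0 in both panels.

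The genes whose log2 CPM followed *Slc20a1* most closely over the 9 libraries were *Ccn2* (Pearson's r = 0.987), *Mgat5* (0.984), *Nudt4* (0.984), *Tmed7* (0.983) and *Ank* (0.979). *Ccn2* encodes a matricellular growth factor, *Mgat5* a glycosyltransferase, *Tmed7* a cargo receptor of the secretory pathway and *Ank* a transporter that exports pyrophosphate precursors. In all, 21 genes reached a correlation of 0.95. The points share the conditions and libraries, so a gene with the same order of conditions ranks high whatever the size of its change.

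The sizes differed widely. *Ank* rose by a log2 fold change of 1.63 with BGP and 1.11 with NaHPO4, *Ccn2* by 0.96 and 0.64 and *Mgat5* by 0.61 and 0.42, all with adjusted p-values of at most 1.17e-07 by edgeR's quasi-likelihood test. *Tmed7* rose by 0.13 with BGP (edgeR's quasi-likelihood test, adjusted p = 0.0282) and was at 0.07 with NaHPO4 (adjusted p = 0.273). Leaving out any 1 of the 6 Control and BGP libraries raised the adjusted p of *Tmed7* with BGP to between 0.0742 and 0.0982.

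**Figure D5:**
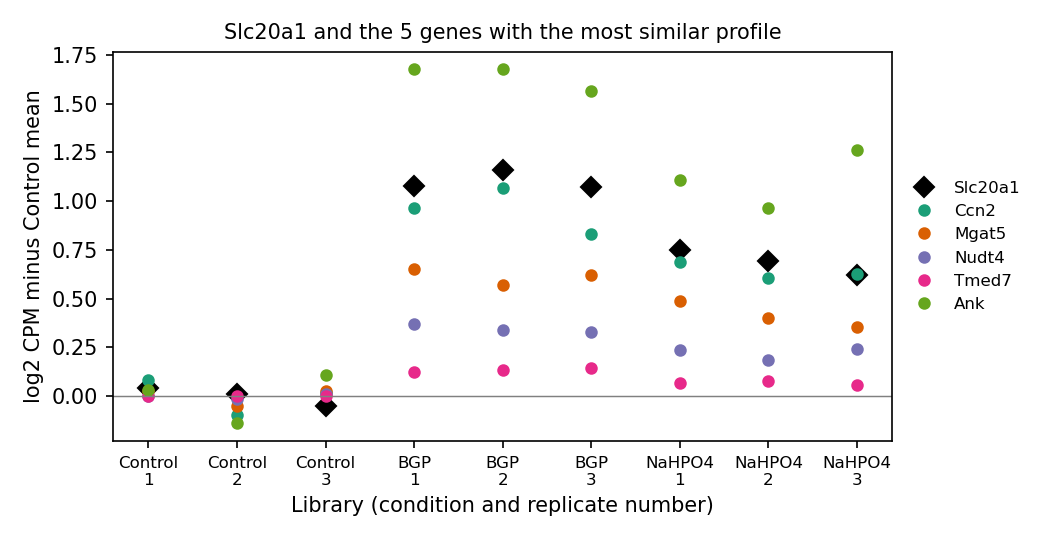
Log2 CPM minus the Control mean of the same gene (y axis) in each library (x axis) for *Slc20a1* (black diamonds) and the 5 genes with the highest correlation with it (coloured circles). All 6 genes lie highest with BGP and between Control and BGP with NaHPO4, from *Tmed7*, with values up to 0.14, to *Ank*, with values up to 1.68.

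For *Xpr1* the closest genes were *Specc1l* (r = 0.966), *Marchf7* (0.964), *Rbms1* (0.962), *Slc4a7* (0.959) and *Cep57* (0.951). Of these, *Slc4a7*, a sodium-bicarbonate cotransporter, rose with BGP and NaHPO4 (log2 fold changes 0.27 and 0.28; edgeR's quasi-likelihood test, adjusted p = 0.00785 and 0.00160). With BGP its adjusted p was 0.0646 without Control replicate 2, 0.0903 without BGP replicate 1 and 0.0592 without BGP replicate 2. The others did not pass. For *Slc20a2* the closest were *D6Ertd527e* (0.976), *Scamp4* (0.918), *Aldh1a1* (0.904), *Cachd1* (0.902) and *Gm2058* (0.900), and none of these passed in any comparison. Several had low counts, with condition means of 0.605 to 0.812 CPM for *D6Ertd527e* and 1.59 to 2.06 CPM for *Scamp4* and *Gm2058*. Between the transporters themselves, r over the 9 libraries was 0.771 for *Slc20a1* and *Xpr1*, -0.473 for *Slc20a1* and *Slc20a2*, and -0.574 for *Slc20a2* and *Xpr1*.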

How the data were processed

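RNA sequencing libraries of 9 samples (Control, BGP and NaHPO4, 3 each) were used, grouped by the condition and replicate number in the sample labels. The authors deposited whole-number read counts per Ensembl gene, without normalization. To make them they prepared stranded poly(A) libraries, ran FastQC and mapped read pairs to GRCm39 in the AIR software. They used edgeR to identify DEGs. The aligner, the counting program and the use of strand are not given in the sources used here. The authors also deposited a TMM-scaled table, a signal equal to the counts times 1 factor per library (1.01 to 1.32), used only for an alternative. No column belonged to a sample outside the study.

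Counts were filtered with filterByExpr (minimum 10) and scaled by TMM, and all 9 libraries were fitted together with glmQLFit and glmQLFTest of edgeR 4.0.16 (R 4.3.3), a coefficient for each condition. P-values were adjusted by Benjamini-Hochberg over the 13679 tested genes. DEGs had an adjusted p below 0.05 and an absolute log2 fold change above 0.5, after the study's methods. The common biological coefficient of variation was 3.64%. CPM values are TMM-normalized. On simulated data with 200 changed genes among 13465 for BGP versus Control, 190 were recovered with 2 false calls, and 0 calls were made without change. The simulation gave all genes the same dispersion and changed only well-counted genes, each by more than the log2 fold change threshold. It therefore does not measure performance for low counts, smaller changes or dispersion that differs between genes. Likeness was Pearson's correlation of log2 CPM (prior count 2).

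Positions and lengths were read from a GENCODE annotation of GRCm39 later than that of the authors, in which 13631 of the tested genes were found. Promoters came from RefSeq (GRCm38.p6), whose table matched *Slc20a1* and *Xpr1*. *Slc20a2* was named only. Named genes were the 3 transporters, list genes with an adjusted p below 0.05, some reference genes of the lists, and the 5 genes most like each transporter. *Gm56350*, *Smim19* and the genes flanking the transporters were named for their position. Of the list genes, 1 is not reported here and was left out of the list counts. The members, lists and tests were chosen with earlier results of these data known. Alternatives were DESeq2 1.42.0, limma 3.58.1 on log2(value + 1) of the TMM table, other scalings, filters and thresholds, a fit of the compared conditions only, a replicate block and each library left out. Python 3.11.15, pandas 2.3.3 and matplotlib 3.10.9 were used. Intervals cover the spread between libraries and counting error, not cultures grown at other times, and limits from a count of 0 cover counting error only.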

Additional observations from a re-analysis of the deposited data

How the results depend on the processing

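The log2 fold change of *Slc20a1* kept its direction and its side of the threshold in all 17 alternatives of each comparison, from 1.08 to 1.12 with BGP, from 0.66 to 0.72 with NaHPO4 and from 0.38 to 0.44 between BGP and NaHPO4. *Slc20a2* and *Xpr1* passed the threshold in none of these alternatives, by edgeR, DESeq2 or limma. The sign of *Slc20a2* with NaHPO4 was not stable. It was 0.001097 with total counts as scaling and ranged from -0.0721 to 0.0305 when libraries were left out. *Xpr1* between BGP and NaHPO4 ranged from -0.0229 to 0.00925 when libraries were left out. Both values were near 0.

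Without the minimum log2 fold change, 346, 1009 and 736 genes passed with BGP, with NaHPO4 and between them, in place of 76, 98 and 80 DEGs, and by construction this admits smaller changes. In the other alternatives DEG counts lay between 59 and 96, 80 and 116, and 62 and 101. Libraries with the same replicate number did not deviate together (correlations of 9 pairs from -0.0092 to 0.0426). In the fit with a replicate block, the log2 fold changes of *Slc20a1* were 1.10, 0.69 and 0.41, and DEG counts were 76, 101 and 87. No call of a transporter changed, and no list gene or gene most like a transporter lost a call. Calls gained by list genes or genes most like a transporter were not examined. With Spearman's in place of Pearson's correlation, 1, 1 and 3 of the 5 genes most like *Slc20a1*, *Slc20a2* and *Xpr1* stayed among the first 5. Each transporter had at least 856 counts in every library.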

Other observations

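The tested protein-coding genes flanking the transporters on their chromosomes were also examined. The nearest 2 on each side of *Slc20a1* in GRCm39 were *Chchd5*, *Polr1b*, *Ckap2l* and *Sirpa*, between 56.6 and 380.5 kb away, and their log2 fold changes with BGP were -0.09, 0.09, -0.06 and 0.10 and with NaHPO4 -0.28, -0.01, 0.18 and 0.10, none past an adjusted p of 0.05 by edgeR's quasi-likelihood test. *Ckap2l*, a mitotic spindle protein, was lower with BGP than with NaHPO4 (log2 fold change -0.24, adjusted p = 0.0408). Around *Slc20a2*, *Mrps31*, *Slc25a15*, *Vdac3* and *Polb* did not pass in any comparison. Around *Xpr1*, *Acbd6* was lower with BGP than in Control (-0.22, adjusted p = 0.0337) and *Qsox1*, a sulfhydryl oxidase, was lower with BGP than with NaHPO4 (-0.14, adjusted p = 0.0102), while *BC034090* and *Stx6* did not pass. Of all tested genes, 2.53% passed with BGP against Control and 5.38% between BGP and NaHPO4. These flanking genes were chosen by position, and their calls were not repeated in the alternatives.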
